A study of Oryza sativa with 6 samples.

Results

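The RAB16 dehydrin genes of rice were followed in hormone-treated seedlings. The members were RAB21 (LOC4350454, also known as RAB16A), RAB16B (LOC4350453), RAB16C (LOC4350452) and RAB16D (LOC4350451), taken by symbol or synonym from the platform's table of probe sets and genes. They made up 4 of the 17905 genes that this table named through a single gene, and 5 of the 57381 probe sets on the array. RAB21 was read by 2 probe sets and each of the other genes by 1. All 5 passed the limit on dim signals and were among the 34316 probe sets tested. In the RefSeq gene table of a japonica assembly, the 4 genes lay on chromosome 11 in the order RAB16D, RAB16C, RAB16B and RAB21. One non-coding RNA gene and 1 pseudogene stood between RAB16C and RAB16B, and neither had a probe set here.

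Dehydrins are very hydrophilic, largely unfolded proteins that accumulate in maturing seeds and in tissues that lose water. They belong to the late embryogenesis abundant (LEA) proteins and are thought to protect membranes and other proteins. RAB stands for responsive to abscisic acid (ABA), the hormone of water shortage and seed dormancy. ABA binds receptors of the PYL family, which then hold back protein phosphatases of type 2C. Holding back these phosphatases frees SnRK2 kinases, called SAPK in rice. The kinases activate bZIP transcription factors such as TRAB1, and these act on promoters of the RAB16 kind. The present arrays tested an auxin and a cytokinin, not ABA.

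RNA came from 7-day-old seedlings of the indica variety IR64 grown in light. The IAA group was kept in 50 µM indole-3-acetic acid, the auxin, the BAP group in 50 µM benzyl aminopurine, a synthetic cytokinin, and the control group in 0.1% dimethyl sulfoxide. The labels name this solvent for the control alone. In every group, tissue taken at 1 h and at 3 h was pooled in equal parts, and the series design calls the 2 replicates of a group biological, each on its own Affymetrix rice array.

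The 6 arrays had median deposited intensities from 16.6 to 23.1 (IAA 16.6 and 20.2, BAP 18.7 and 23.1, control 21.9 and 18.4). Green tissue was present on every array: the light-harvesting gene CAB2R read between 7417 and 8995. Both BAP arrays were run on a later day than the other 4, so run day and BAP cannot be told apart. IAA and BAP arrays used fluidics modules 3 and 4, and control arrays modules 1 and 2, which ties module to treatment against the control in the same way. In whole seedlings, fewer cells that express a gene and less RNA per cell cannot be told apart. With 2 arrays a group, precision is limited throughout.

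RAB21 had a wide range within the IAA group and the control. Its first probe set (suffix _at) read 97.6 and 449.8 on the IAA arrays, 467.7 and 310.3 on the BAP arrays, and 34.8 and 285.1 on the control arrays, in deposited intensity. Array 1 was the low one in both the IAA group and the control, and both BAP arrays read above both control arrays on this scale. After quantile normalization, the log2 values were 7.04 and 8.76 with IAA, 8.94 and 8.29 with BAP, and 5.54 and 8.30 in the control, where BAP array 2 lay just below control array 2. The 2 control arrays thus lay 2.75 apart on the log2 scale, a ratio of 6.74. A gap at least that wide between the control arrays was found for 0.0233% of the tested probe sets. The second RAB21 probe set carries the suffix _s_at, which the manufacturer gives to probes matching more than 1 transcript. It read 68.3 and 197.2 with IAA, 294.5 and 174.6 with BAP, and 54.1 and 140.7 in the control. The pair of probe sets ordered the arrays almost alike (Pearson r = 0.96 and Spearman rho = 0.94 over 6 arrays, as a description).

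RAB16B, the gene next to RAB21, read 18.0 and 91.9 with IAA, 74.1 and 69.0 with BAP, and 32.0 and 80.6 in the control. Both BAP arrays lay inside the range that the control arrays spanned, and array 1 was again the low one of the IAA group and of the control. RAB16D, at the other end of the cluster, read 7.5 and 50.9 with IAA, 101.8 and 257.0 with BAP, and 16.8 and 66.3 in the control. Both BAP arrays were above all 4 other arrays, and array 2 was the higher one in each of the 3 groups. RAB16C, between the 2 in gene order, read 45.1 and 62.6 with IAA, 136.7 and 105.5 with BAP, and 72.3 and 72.6 in the control, so no group overlapped another. Its residual spread of 0.19 on the log2 scale was a common one, reached or passed by 43.55% of tested probe sets. For the other 4 probe sets the residual spread was 0.77 to 1.35, which 0.04% to 0.29% of tested probe sets reached, and 0.06% to 0.45% of those within 0.5 log2 of the same mean brightness.

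**Figure D1:**
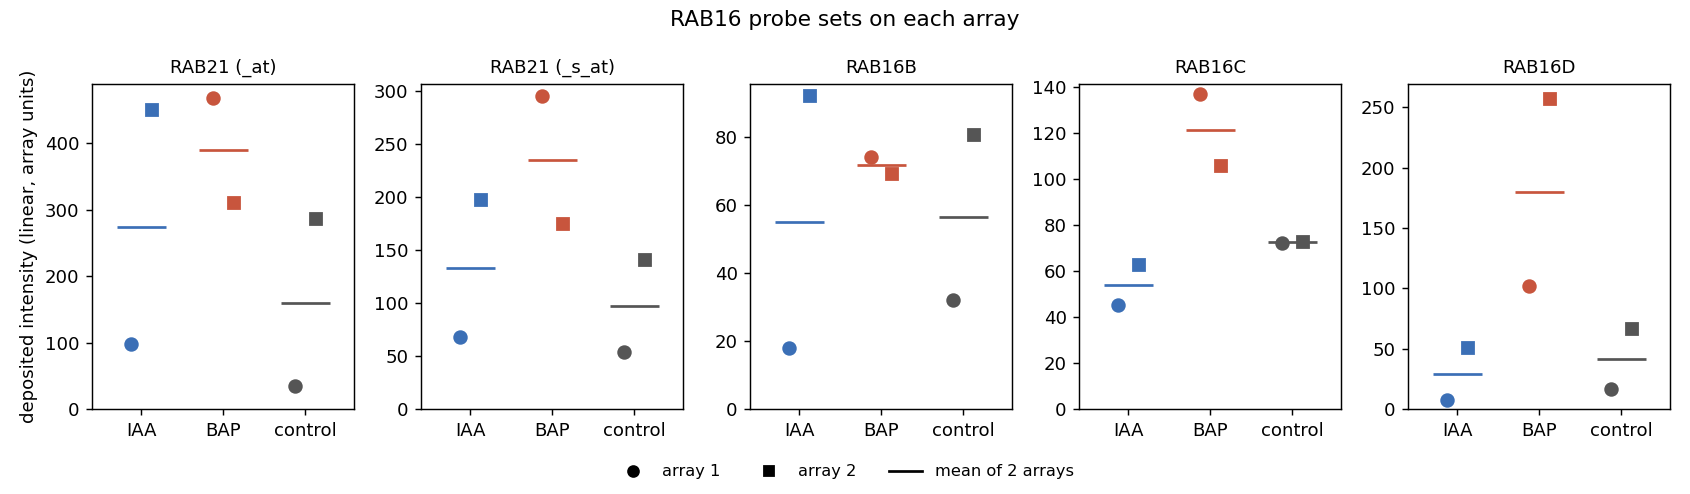
Deposited intensity (linear, vertical axis from 0) of the 5 RAB16 probe sets on the 6 arrays, with IAA, BAP and control side by side, a circle for array 1, a square for array 2 and a line for their mean. RAB21, RAB16B and RAB16D have a low array 1 in the IAA and control groups (RAB21 _at 97.6 and 34.8), and RAB16D and RAB16C are highest on the BAP arrays.

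IAA was set against the control to ask whether auxin changed these genes. No change passed the test: 0 of the 5 probe sets were called in limma at an adjusted p of 0.05, against 0.851% of all tested probe sets, and before adjustment 0 had a p under 0.05, against 10.8% of all tested. The log2 values of IAA minus control were 0.98 (SE 0.79, adjusted p = 0.737) and 0.47 (SE 0.46, adjusted p = 0.793) for the RAB21 probe sets. They were -0.09 (SE 0.47) for RAB16B, -0.23 (SE 0.19) for RAB16C and -0.36 (SE 0.57) for RAB16D, with adjusted p between 0.751 and 0.972. The 95% intervals ran from -0.81 to 2.76 for the first RAB21 probe set and from -1.65 to 0.93 for RAB16D. The narrowest, from -0.67 to 0.21, belonged to RAB16C. Its IAA arrays were both below both control arrays, a separation that 22.9% of tested probe sets also had. The median of the 5 differences was -0.09, against -0.01 over all tested probe sets. One array decided the direction for RAB21: its first probe set read -0.40 without control array 1 and 2.35 without control array 2. RAB16B turned to 0.49 without control array 2 and 0.65 without IAA array 1, and RAB16D to 0.36 and 0.35.

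BAP was set against the same control arrays to ask about the cytokinin. All 5 differences were above 0, but 0 of 5 probe sets were called, against 0.274% of all tested probe sets (before adjustment 3 of 5 had a p under 0.05, as did 7.57% of all tested probe sets). RAB16D had a log2 difference of 1.77 (SE 0.57, 95% interval 0.49 to 3.06, adjusted p = 0.416), which is a ratio of 3.42. RAB21 had 1.69 (SE 0.79, interval -0.09 to 3.47, adjusted p = 0.699) on the first probe set and 1.24 (SE 0.46, interval 0.20 to 2.29, adjusted p = 0.542) on the second. RAB16C had 0.64 (SE 0.19, interval 0.20 to 1.08, adjusted p = 0.372) and RAB16B 0.36 (SE 0.47, interval -0.71 to 1.43, adjusted p = 0.943). Both BAP arrays exceeded both control arrays after normalization for RAB16D, RAB16C and the second RAB21 probe set, 3 of 5, where 17.8% of tested probe sets showed that separation upwards. The median over the 5 was 1.24, against -0.01 over all tested probe sets. Without rescaling between arrays, RAB16D and both RAB21 probe sets passed (adjusted p = 0.001, 0.0131 and 0.0253), under a fit that drew each spread much closer to the common trend (median prior degrees of freedom 55.7, against 6.07). Leaving out control array 1 brought the first RAB21 probe set to 0.32, the second to 0.56, RAB16D to 1.05 and RAB16B to -0.22, and leaving out control array 2 brought them to 3.07, 1.92, 2.49 and 0.94. RAB16D had 2.34 without BAP array 1 and 1.21 without BAP array 2, and 2.24 with a pseudocount of 1 and 1.15 with 64 in place of 16.

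BAP was finally set against IAA, where the run day differs as well. Again 0 of 5 probe sets were called, against 2.24% of all tested probe sets, and before adjustment 2 of 5 had a p under 0.05, as did 12.7% of all tested probe sets. RAB16C came closest, at 0.87 (SE 0.19, 95% interval 0.43 to 1.31, adjusted p = 0.0587), a ratio of 1.83. RAB16D had the widest gap, 2.13 (SE 0.57, interval 0.85 to 3.42, adjusted p = 0.114), a ratio of 4.39. This size depended on the pseudocount of 16 added before the log: the difference was 2.85 with a pseudocount of 1 and 1.32 with 64. These genes were also the 2 of 5 whose BAP arrays both exceeded both IAA arrays, as 19.7% of tested probe sets did. RAB21 had 0.71 (SE 0.79) and 0.78 (SE 0.46), and RAB16B 0.45 (SE 0.47), with adjusted p between 0.557 and 0.796. Without rescaling between arrays, RAB16C and RAB16D passed (adjusted p = 0.0151 and 5.67e-06). Without IAA array 1 the difference was -0.15 for the first RAB21 probe set, -0.29 for RAB16B and 1.44 for RAB16D. Without IAA array 2 these were 1.57, 1.18 and 2.82. The comparisons share arrays pairwise, so their values are not independent of each other.

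**Figure D2:**
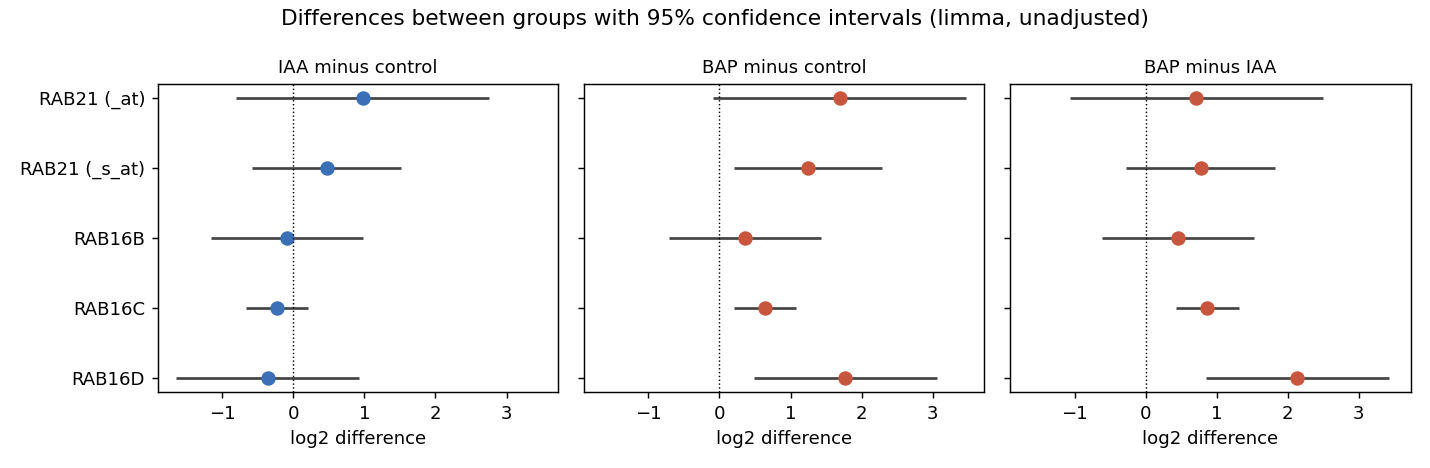
Log2 differences (horizontal axes, normalized values) of the 5 RAB16 probe sets for IAA minus control, BAP minus control and BAP minus IAA, with unadjusted 95% confidence intervals from limma as lines and 0 dotted. The RAB16C intervals are the shortest (0.20 to 1.08 for BAP minus control), and those of RAB21 _at the longest (-0.09 to 3.47).

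The spread between the arrays of a group was itself shared by several members. On the log2 scale, array 2 minus array 1 of the IAA group was 1.72 and 1.04 for RAB21, 1.47 for RAB16B and 1.40 for RAB16D, against a median absolute gap of 0.19 over tested probe sets. The same gaps in control seedlings were 2.75 and 1.36 for RAB21, 1.16 for RAB16B and 1.44 for RAB16D, against a median of 0.14. RAB16C had gaps of 0.14 and 0.19 there, close to these medians. Between the BAP arrays the gaps were -0.65 and -0.78 for RAB21, -0.17 for RAB16B, -0.41 for RAB16C and 1.14 for RAB16D, against a median of 0.21. RAB16D alone among the members was higher on BAP array 2. RAB16 transcripts resemble each other, and how far probes of one copy bind another was not tested.

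Genes beside the cluster had smaller gaps than RAB21, RAB16B and RAB16D in the IAA and control groups. Of the 8 annotated genes on each side, 6 in all had a probe set, all of them tested: 1 non-coding RNA gene on the RAB16D side and 5 protein-coding genes on the RAB21 side. LOC4350455, the nearest with a probe set, read 5594 and 6405 with IAA, 6076 and 6761 with BAP, and 6218 and 5612 in the control. Over the 6 flanking genes, array 2 minus array 1 lay between -0.10 and 0.30 with IAA, -0.21 and 0.09 with BAP, and -0.16 and 0.22 in the control. The difference of these gaps from those of the members was not tested. Limma called 0 of the 6 in each comparison (adjusted p at least 0.223). Before adjustment, 1 of the 6 had a p under 0.05 for IAA minus control and 0 for BAP minus control or BAP minus IAA. Over all tested probe sets these shares were 10.8%, 7.57% and 12.7%.

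Other dehydrin, LEA and ABA-responsive genes were read for comparison. Only 6 genes were matched from the planned names, and 5 of these had a probe set, so most of these families was not covered. In each of the 3 comparisons 0 of the 5 passed in limma. Before adjustment 0, 0 and 1 of the 5 had a p under 0.05, against 10.8%, 7.57% and 12.7% of all tested probe sets. The median log2 differences of the 5 were -0.03 for IAA minus control, 0.05 for BAP minus control and -0.06 for BAP minus IAA. LEA19, a LEA protein gene also known as LEA3-1, read 236.5 and 469.7 with IAA, 717.3 and 921.5 with BAP, and 296.3 and 890.6 in the control, with the low arrays of the IAA and control groups the same as for RAB21. Its log2 differences were -0.53 for IAA minus control (adjusted p = 0.755), 0.65 for BAP minus control (adjusted p = 0.863) and 1.18 for BAP minus IAA (adjusted p = 0.304). LIP9, another dehydrin gene, read 2686 and 2977 with IAA, 2677 and 2884 with BAP, and 2892 and 3013 in the control. SALT, which encodes a lectin induced by salt and drought, read 3437 and 2963 with IAA, 3388 and 4859 with BAP, and 3753 and 3520 in the control. Outside the rule for named genes, and singled out after their values were seen, the dehydrin gene RAB25 stayed between 19.3 and 37.4 and the embryo LEA gene EMP1 between 14.8 and 37.3 on all 6 arrays.

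**Figure D3:**
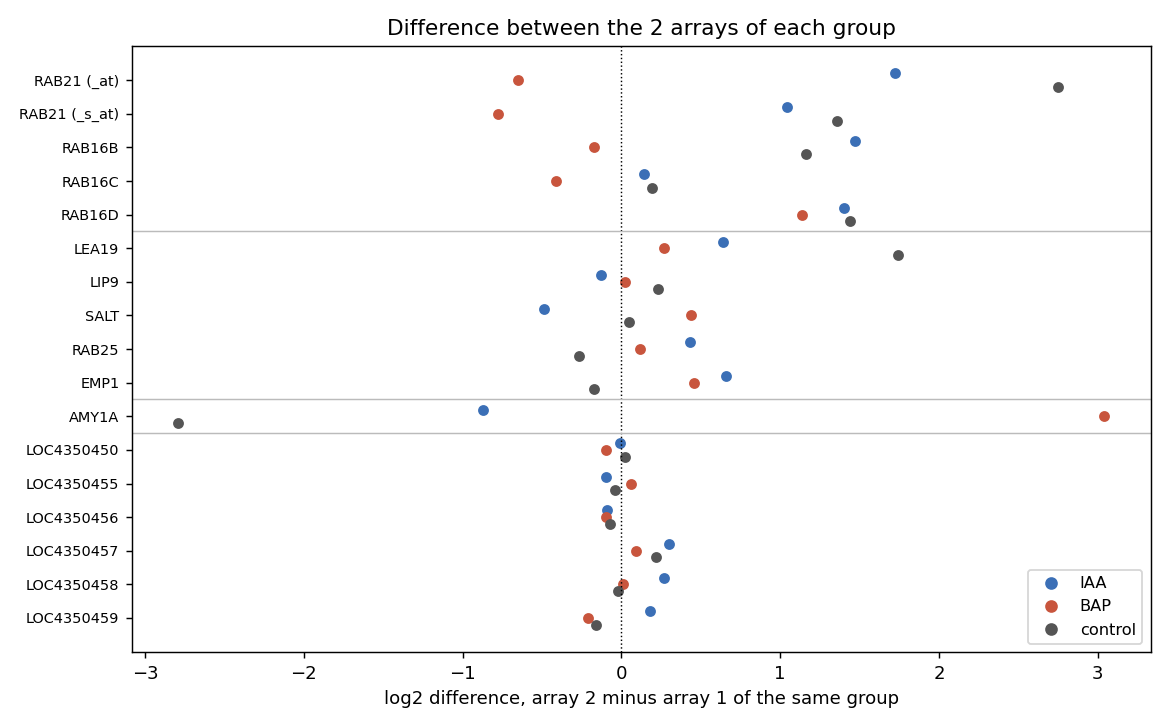
Log2 difference between the 2 arrays of each group (array 2 minus array 1, horizontal axis, normalized values) for the RAB16 probe sets, the other dehydrin, LEA and ABA-responsive genes, AMY1A and the 6 flanking genes, from top to bottom, with 1 point per group. RAB21, RAB16B, RAB16D and LEA19 lie to the right in IAA and control, with AMY1A to the left there, while the flanking genes stay between -0.21 and 0.30.

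ABA genes were counted from ABA synthesis to its transcription factors, as far as their names matched the gene table. Of 32 matched genes of ABA synthesis, breakdown, perception and response, 28 were tested. The 5 tested synthesis genes were PDS, ZEP, PSY1, PSY2 and PSY3, and the 1 tested receptor gene was PYL5. Other genes of these steps were not read, so the counts cover only part of the pathway. For IAA against the control 0 of 28 were called in limma, and likewise 0 of 28 for BAP against the control, while before adjustment 6 had a p under 0.05 each time (21.4%, against 10.8% of all tested probe sets for IAA and 7.57% for BAP). For BAP against IAA, 2 of 28 fell and 0 rose (7.14%, against 2.24% of all tested probe sets), and before adjustment 11 had a p under 0.05 (39.3%, against 12.7%). PSY3, a phytoene synthase gene that feeds carotenoid and ABA synthesis, read 937.5 and 915.4 with BAP against 1716 and 1634 with IAA (log2 difference -0.89, adjusted p = 0.013). PP2C09, one of the phosphatase genes that restrain ABA signalling, read 365.1 and 411.8 with BAP against 822.8 and 798.3 with IAA (-1.08, adjusted p = 0.0164). Its control arrays read 408.9 and 500.6, and its IAA minus control difference of 0.88 did not pass (adjusted p = 0.0658).

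Of the transcription factor genes, BZIP23 read 1534 and 1567 with IAA, 1105 and 994.0 with BAP, and 1403 and 1482 in the control. TRAB1, a bZIP factor that binds ABA-responsive promoter elements, read 497.7 and 742.9 with IAA, 589.7 and 526.9 with BAP, and 626.0 and 627.5 in the control. VP1, a seed transcription factor gene, stayed between 14.2 and 29.7. BZIP23 had log2 differences of -0.46 for BAP minus control (limma adjusted p = 0.363) and -0.60 for BAP minus IAA (adjusted p = 0.0642). Before adjustment both had a p under 0.05. Its IAA minus control difference was 0.14 (adjusted p = 0.786). TRAB1 had adjusted p of at least 0.72 in each comparison, and VP1 of at least 0.764. All 10 SAPK kinase genes were tested and limma called 0. Before adjustment 0 of the 10 had a p under 0.05 for IAA minus control, 2 for BAP minus control and 2 for BAP minus IAA. Over all tested probe sets these shares were 10.8%, 7.57% and 12.7%. SAPK2 read 1345 and 1151 with IAA, 1658 and 1770 with BAP, and 1286 and 1238 in the control. SAPK8 ranged from 942.8 to 1353 and SAPK5 from 713.7 to 989.3 over the arrays. ABA8OX1 and ABA8OX2, which encode ABA 8'-hydroxylases, had log2 differences of 0.51 and -0.17 for IAA minus control and 0.08 and 0.63 for BAP minus control (adjusted p between 0.253 and 0.964). For BAP minus IAA they had -0.43 and 0.80 (limma adjusted p = 0.291 and 0.0762), and before adjustment both had a p under 0.05. The receptor gene PYL5 read 753.6 and 623.3 with IAA, 536.0 and 604.1 with BAP, and 665.2 and 584.4 in the control.

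Among the tissue markers, AMY1A differed widely between arrays of a group, and some root markers differed between groups. AMY1A, an alpha-amylase gene of germinating grain, read 5131 and 3444 with IAA, 602.4 and 5608 with BAP, and 5307 and 706.3 in the control. The 2 arrays lowest for RAB21, IAA array 1 and control array 1, were among the 3 highest for AMY1A, and the other one of these 3 was BAP array 2, where RAB21 read 310.3. The 14 measured markers of remaining seed summed to 6026 and 4794 with IAA, 1847 and 6918 with BAP, and 6674 and 1829 in the control. The other 13 without AMY1A summed to 895 and 1350 with IAA, 1244 and 1310 with BAP, and 1367 and 1123 in the control. Among them AMY3D, another alpha-amylase gene, did not follow AMY1A. It read 90.3 and 92.7 with IAA, 153.7 and 137.2 with BAP, and 90.2 and 72.5 in the control. Of the storage protein genes, the globulin gene GLB1 read between 573.4 and 1010.1 and the glutelin gene GLUA2 between 120.0 and 245.5 over the 6 arrays. Of the 9 seed markers that were tested, AMY1A and AMY3D among them, limma called 0. Before adjustment 0 had a p under 0.05 for IAA minus control and 1 for BAP minus control (AMY3D). For BAP minus IAA there were 2 (AMY3D and GLUA2). Over all tested probe sets these shares were 10.8%, 7.57% and 12.7%. The 4 dimmest markers, the glutelin genes GLUA1, GLUA3 and GLUD1 and the prolamin gene RP6, read at most 7.7 on every array, below the limit for testing, and 0 of the 14 were listed at 0 throughout. Of 5 root markers, 3 fell with BAP against the control: the aluminium transporter gene NRAT1 (log2 difference -1.49, limma adjusted p = 0.00615) and the silicon transporter genes NIP2-1 (-0.89, adjusted p = 0.00837) and LSI2 (-1.67, adjusted p = 0.0126). Over all tested probe sets, 0.274% were called in that comparison. The root marker CASP1 stayed level (0.01, limma adjusted p = 0.996), and IRT1 did not pass (-1.15, adjusted p = 0.416). NRAT1 also fell with IAA against the control (-0.85, adjusted p = 0.0346), and LSI2 with BAP against IAA (-0.98, adjusted p = 0.0395). The 5 root markers summed to 3279 and 4234 with IAA, 2628 and 2818 with BAP, and 5857 and 5210 in the control. Most of each sum was NIP2-1, at 2187.3 and 2883.7 with IAA, 1848.5 and 2005.5 with BAP, and 3904.3 and 3125.2 in the control. Of 4 tested green shoot markers 0 were called in limma, and before adjustment likewise 0. The part of seed or root tissue in the RAB16 values was not tested.

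**Figure D4:**
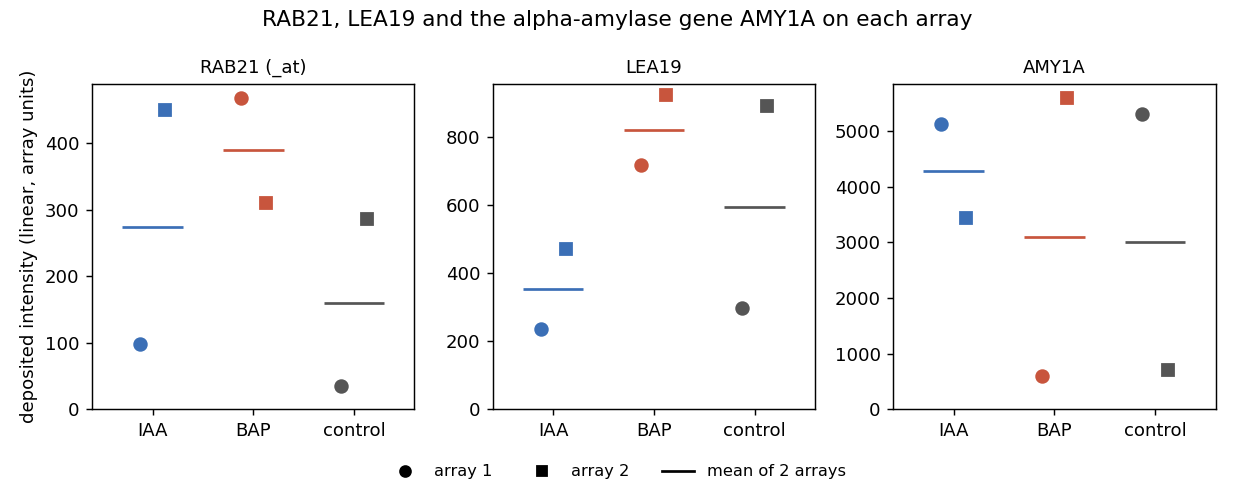
Deposited intensity (linear, vertical axes from 0, each gene on its own scale) of RAB21, LEA19 and AMY1A on the 6 arrays, with a circle for array 1, a square for array 2 and a line for the group mean. In the control, array 1 is low for RAB21 (34.8) and LEA19 (296.3) and high for AMY1A (5307).

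Among genes with a symbol and a range of at least 0.5 log2 over the arrays, 1307 probe sets in all, those most alike in pattern were ranked by Pearson r over the 6 arrays, as a description. For RAB21 they were ELA3 (r = 0.970), the ubiquitin ligase gene XBOS33 (0.937) and the zinc finger gene C3H10 (0.922). For RAB16B they were the calcium pump gene ACA5 (0.991), the beta-glucosidase gene BGLU6 (0.959) and ELA3 (0.934). ELA3 stood in both lists, at 189.8 and 329.1 with IAA, 321.7 and 307.8 with BAP, and 215.0 and 302.2 in the control. For RAB16C they were the polyamine transporter gene PUT1 (0.972), the ethylene receptor gene ETR2 (0.971) and the sugar transporter gene Os8N3 (0.958). For RAB16D they were ORR2 (0.978), G1L9 (0.954) and the protein kinase gene CIPK25 (0.946). Some of these genes were dim. C3H10 read 6.4 on IAA array 1 and 3.1 on control array 1, and ETR2 7.9 and 9.5 on the IAA arrays. Such single readings lay under an intensity of 9.94, which matches the limit for testing. That limit was set on the mean log2 value over the 6 arrays, and these genes passed it. PUT1 read 54.5 and 68.4 with IAA, 163.7 and 148.8 with BAP, and 95.7 and 94.6 in the control, the same order of groups as RAB16C. Among the members, RAB16B and RAB21 were alike at r = 0.85 and RAB16C and RAB16D at r = 0.76, while RAB16B and RAB16C reached 0.50. With 6 arrays such values are easily high: between 20 and 82 of the 18545 probe sets with that range exceeded r = 0.95 with a given member.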

How the data were processed

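The values used are the deposited intensity of each probe set, linear and 1 per array. Background correction and summary method are not given in the sources used here. Run day is the hybridization date in the file headers of the scanner software, and fluidics module was read from the same headers. The log2 of intensity plus 16, a scale that compresses changes of dim genes, was quantile normalized because array medians differed by 0.262, over a limit of 0.1. Of 57194 target probe sets, the 22878 under the 40th percentile of mean log2 value (4.70) were left out and 34316 tested. The fit of the 3 group means used limma 3.58.1 (R 4.3.3) over 6 arrays, with 3 residual degrees of freedom and a spread that followed intensity. Adjusted p-values are two-sided, by Benjamini-Hochberg over all tested probe sets. On simulated data for IAA minus control over 34316 probe sets, the fit called 18 of 66 log2 changes of 0.5, 50 of 64 of 1 and 67 of 70 of 2. The simulated noise had the spread typical of probe sets of like brightness. RAB21, RAB16B and RAB16D varied more (residual spread 0.77 to 1.35 on the log2 scale), so these counts do not give the recovery for them.

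The members and gene lists were chosen with earlier results of these data known. Listed names that did not lead to 1 gene in the RefSeq table were left out, so some lists cover only part of their families. List genes stand by their brightest probe set. Named were all members, dehydrin, LEA and ABA genes called in any comparison or else the 3 brightest of their list, and the 3 genes most alike to each member. The rule did not cover the tissue markers, and those named were chosen after their values were seen. The RefSeq table mostly held locus numbers as symbols, so a symbol among the synonyms also counted. It served for names and gene order only, as the samples are indica. Tables were made with Python 3.11.15 and pandas 2.3.3. Alternatives covered the pseudocount, scaling, filter, spread, replicate block, arrays in the fit and each array left out.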

Additional observations from a re-analysis of the deposited data

How the results depend on the processing

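The 5 RAB16 probe sets held 0 calls in the comparison of IAA with control under all alternatives tried. For BAP against control the count was 3 without rescaling and 1 with a replicate block, and for BAP against IAA it was 2 and 1, against 0 otherwise, also with each array left out. The replicate block called RAB16D (adjusted p = 0.0139 and 0.00124). The replicate numbers were not taken as pairs, since the gaps between arrays of 2 groups correlated over probe sets at 0.0174 (IAA and control), 0.0264 (BAP and control) and -0.0595 (BAP and IAA). Directions held under the 8 other settings for all 15 differences. With 1 array left out, IAA minus control ranged from -0.40 to 2.35 and -0.21 to 1.14 for RAB21, -0.82 to 0.65 for RAB16B and -1.07 to 0.36 for RAB16D. BAP minus control ranged from -0.22 to 0.94 for RAB16B, 1.05 to 2.49 for RAB16D and 0.56 to 1.92 for the second RAB21 probe set, and BAP minus IAA from -0.15 to 1.57 and 0.26 to 1.29 for RAB21, -0.29 to 1.18 for RAB16B and 1.44 to 2.82 for RAB16D. With an array left out the lone one is assumed to vary like the other groups. Over all tested probe sets, 292 were called for IAA, 94 for BAP and 769 between hormones. With dim probe sets kept these were 68, 14 and 234, with a spread that does not follow intensity 92, 13 and 223, and without rescaling 502, 210 and 974 (244 higher and 258 lower for IAA, against 217 and 75). For BAP, 60 were called with each array centred on its median. They ranged from 85 to 287, 13 to 92 and 310 to 591 with an array left out. Without rescaling the median difference of all probe sets was -0.08 for IAA minus control and 0.08 for BAP minus IAA. In the latter, 625 were then called higher and 349 lower, against 381 and 388. Where calls changed, the cause was not tested. The single signal of RAB16D on IAA array 1 (7.5) lay under the intensity that matches the limit for testing, though its mean over the arrays passed.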
